A study of Mus musculus with 7 samples.

Results

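A group of 10 transcription factors of the embryonic mesenchyme were followed in RNA-seq counts of mouse embryonic fibroblasts (MEFs) and mouse embryonic stem cells (mESCs). The members were the rows of the count table whose gene symbol was Prrx1, Prrx2, Meox1, Meox2, Foxc1, Foxc2, Foxf1, Osr1, Tbx15 or Tcf21, which gave 10 genes of 55484 listed and 9 of the 16580 that passed the filter on low counts. The table held 4 MEF and 3 mESC libraries, all on a C57/Bl6 background and none with a treatment in the labels, and the question was how far each factor differed between the fibroblasts and the pluripotent cells and how evenly it was expressed among the fibroblast libraries. The labels named no stem cell line, no embryonic age and no growth conditions, and the extraction text they carried was written for hematopoietic stem cells, so the preparation of these cells is not given there. Library totals ran from 6528643 to 11441278 counts. The libraries are called MEF-A to MEF-D and mESC-A to mESC-C in column order, since the column names did not give the sample numbers.

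Mesenchyme is the loose embryonic tissue from which connective tissue, cartilage, bone and the stroma of organs form, and its regions differ in the transcription factors they express. Prrx1 and Prrx2 are paired-type homeobox factors of limb and facial mesenchyme, Meox1 and Meox2 are homeobox factors of the somites, and Foxc1, Foxc2 and Foxf1 are forkhead factors of paraxial, vascular and visceral mesoderm. Osr1 is a zinc finger factor of intermediate and lateral plate mesoderm, Tbx15 is a T-box factor of dermal and skeletal mesenchyme, and Tcf21 is a basic helix-loop-helix factor of visceral and cardiac mesenchyme. MEFs are a mixed culture grown from embryos, whereas mESCs represent the cells of the early embryo before these tissues exist.

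The promoter windows of Prrx1, Prrx2 and Foxc1 are shown because Prrx1 had the lowest fitted log2 fold change among the members, Foxc1 the one nearest to 0, and Prrx2 is the paralog of Prrx1. Each window covers 250 bases before and 50 bases after a RefSeq start site in GRCm38.p6, written 5′ to 3′ on the gene's strand, with CG dinucleotides in capitals. RefSeq windows were found for 5 of the 10 members (Prrx1, Prrx2, Tcf21, Meox2 and Foxc1).
Prrx1 (chr1:163313601-163313900, minus strand): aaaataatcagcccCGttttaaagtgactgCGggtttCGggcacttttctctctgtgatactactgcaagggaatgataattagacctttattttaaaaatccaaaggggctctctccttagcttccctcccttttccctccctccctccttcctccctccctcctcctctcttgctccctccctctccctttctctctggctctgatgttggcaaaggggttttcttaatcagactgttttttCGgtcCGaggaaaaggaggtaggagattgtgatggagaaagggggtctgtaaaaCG
Prrx2 (chr2:30845117-30845416, plus strand): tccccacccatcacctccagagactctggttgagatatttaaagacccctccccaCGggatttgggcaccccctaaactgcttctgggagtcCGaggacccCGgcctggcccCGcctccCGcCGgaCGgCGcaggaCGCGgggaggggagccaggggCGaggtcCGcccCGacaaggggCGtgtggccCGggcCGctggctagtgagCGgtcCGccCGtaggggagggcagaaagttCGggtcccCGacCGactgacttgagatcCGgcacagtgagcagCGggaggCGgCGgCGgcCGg
Foxc1 (chr13:31806396-31806695, plus strand): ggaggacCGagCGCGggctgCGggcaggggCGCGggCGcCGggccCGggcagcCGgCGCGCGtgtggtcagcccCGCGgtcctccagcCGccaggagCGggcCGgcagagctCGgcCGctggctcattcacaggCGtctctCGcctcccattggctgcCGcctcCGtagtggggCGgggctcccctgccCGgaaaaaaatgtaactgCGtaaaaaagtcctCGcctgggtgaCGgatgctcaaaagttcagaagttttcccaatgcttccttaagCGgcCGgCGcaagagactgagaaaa
The paralogs differed in composition. The Prrx1 window held 6 CG dinucleotides at a GC content of 47.7%, and the Prrx2 window held 28 at 70.3%. Foxc1 held 32 at 67.3%, Meox2 held 12 and Tcf21 held 8, beside a median of 7 over 32841 windows. The letters TAATTA, the core recognised by many homeobox factors, occurred on either strand in the Prrx1 window and in none of the other 4, and in 5.29% of all windows. GGGCGG occurred on either strand in the Prrx2, Meox2 and Foxc1 windows and in 35.7% of all windows. CCAAT occurred in the Foxc1 window (37.4% of all windows) and TATAAA in the Meox2 window (13.6%). These matches describe letters and not bound sites. The Prrx2 window lies inside the GENCODE M21 span of the gene, whose annotated start is upstream of the RefSeq start.

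All 9 members that were tested were lower in mESCs than in MEFs by edgeR's quasi-likelihood test at a Benjamini-Hochberg adjusted p of 0.05, and none was higher. Over all tested genes 25.0% were called lower in mESCs and 22.8% higher. A gene expressed in only 1 of the cell types passes the filter through that cell type alone, so the count of 9 is a description. In 8 of the 10 members every mESC library lay below every MEF library in CPM, counts scaled to a common library size with TMM factors, which was the case for 26.2% of the tested genes. The summed level of the 10 members was 888 to 1120 CPM in the MEF libraries and 13.5 to 19.0 CPM in the mESC libraries, so the groups did not overlap. Most of the MEF sum was Prrx1, at 626 to 819 CPM in MEFs and 5.37 to 7.11 CPM in mESCs, so the sum mainly restates that gene. In such bulk samples fewer cells of a type and less RNA per cell cannot be told apart, and because the labels do not say that the libraries came from separate cultures, the p-values measure the spread between these libraries. The study calls its transcriptional replicates biological, but the table holds more MEF columns than it names. The Y-linked genes described below set MEF-A and MEF-B apart from MEF-C and MEF-D, and the fit held no term for these pairs.

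**Figure D1:**
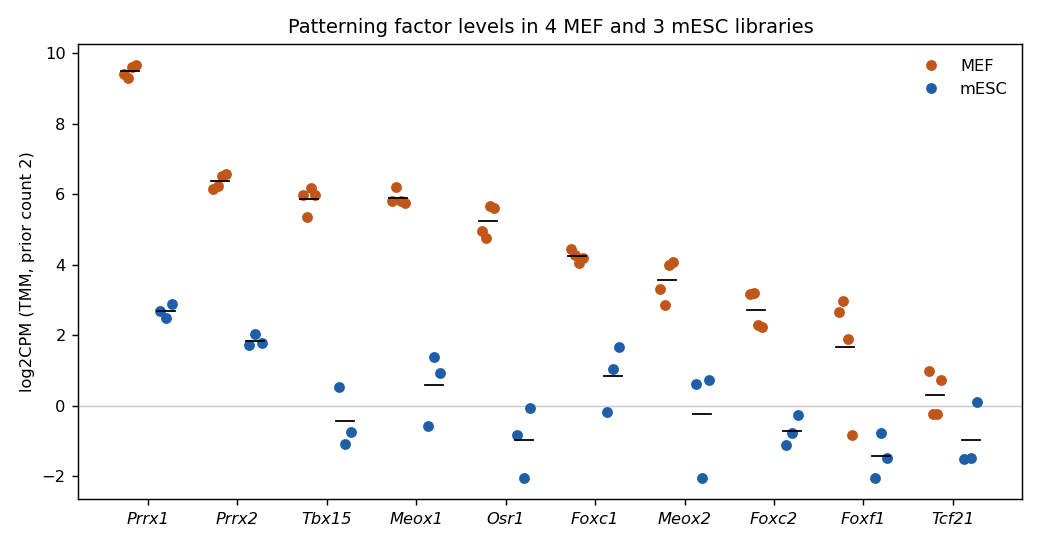
Level of the 10 patterning factors in each library, in log2CPM on the vertical axis, with genes ordered by their MEF mean. Points are single libraries of MEFs (orange) and mESCs (blue) and short lines are group means. The 2 groups are apart for 8 genes and overlap for Foxf1 and Tcf21.

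The cell type labels were checked against marker genes. All 12 fibroblast markers, among them the collagens Col1a1, Col1a2 and Col3a1, were lower in mESCs, where their level was 0.452 to 41.0% of that in MEFs (median 1.44%). Their summed level was 374 to 425 CPM in mESCs and 26000 to 42700 CPM in MEFs. Of 12 pluripotency markers 11 were higher in mESCs and Fut4 was not tested, with sums of 3470 to 3740 CPM in mESCs and 46.2 to 49.0 CPM in MEFs. The part of fibroblast RNA in the mESC values of the factors was not tested.

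The paired-type homeobox factor Prrx1, which acts in limb bud and jaw mesenchyme, had the highest level of the 10. It was read at 682, 626, 783 and 819 CPM in MEF-A to MEF-D and at 6.21, 5.37 and 7.11 CPM in mESC-A to mESC-C. The MEF libraries were close to each other and far above all mESC libraries. The fitted log2 fold change of Prrx1, as in all comparisons mESC minus MEF, was −6.87 (SE 0.198, 95% interval −7.30 to −6.43, adjusted p = 7.00e-09, edgeR quasi-likelihood test). The mean in mESCs, 6.23 ± 0.874 CPM (SD, n = 3), was 0.856% of the mean in MEFs, 727 ± 89.2 CPM (SD, n = 4). Prrx1 lies at chr1:163245119-163313710 on the minus strand (GRCm38, GENCODE M21).

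Its paralog Prrx2, at chr2:30834972-30881251 on the plus strand, overlaps with Prrx1 in function in the limb and the face. Prrx2 was measured at 70.3, 76.1, 92.2 and 94.6 CPM in MEF-A to MEF-D and at 3.05, 3.88 and 3.20 CPM in mESC-A to mESC-C. As for Prrx1, MEF-C and MEF-D were the higher MEF libraries, and the mESC libraries were well below. For Prrx2 the fitted difference was a log2 fold change of −4.62 (SE 0.22, 95% interval −5.11 to −4.13, adjusted p = 9.15e-08, edgeR quasi-likelihood test), and mESCs held 4.05% of the MEF mean. Prrx2 was at a larger share of its MEF level than Prrx1, and the 95% intervals of their log2 fold changes did not overlap. A test of that difference was not run.

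**Figure D2:**
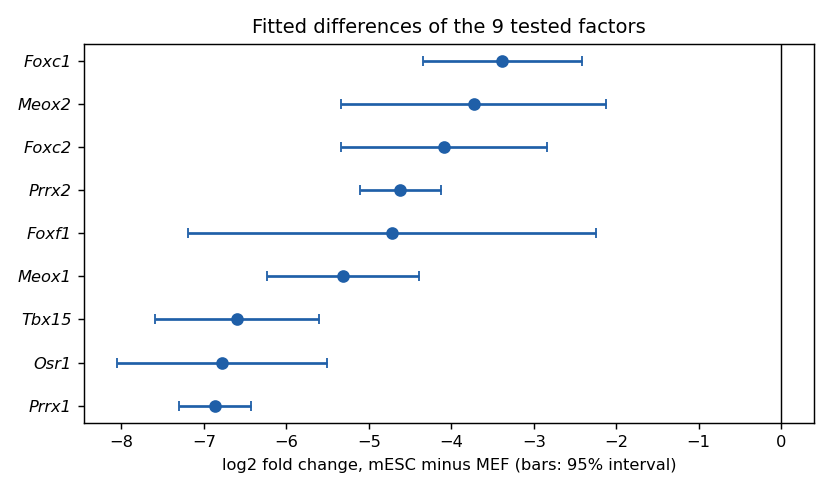
Log2 fold change of the 9 tested patterning factors, mESC minus MEF, with 95% intervals from the edgeR fit on the horizontal axis. All intervals lie below 0, from Prrx1 at −6.87 to Foxc1 at −3.38, and the interval of Foxf1 is the widest.

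Meox1 and Meox2 act together in somite patterning, and Meox2 also in limb muscle and vascular cells. Meox1 (chr11:101877510-101894374, minus strand) was at 55.5, 74.1, 55.5 and 53.5 CPM in MEF-A to MEF-D and at 0.436, 2.4 and 1.66 CPM in mESC-A to mESC-C. MEF-B stood above the other MEF libraries, which were nearly equal, and mESC-A was the lowest mESC library. For Meox1 the fitted difference was a log2 fold change of −5.31 (SE 0.415, 95% interval −6.23 to −4.39, adjusted p = 2.65e-06, edgeR quasi-likelihood test). Meox2 (chr12:37108540-37179534, plus strand) was at 9.73, 7.05, 15.7 and 16.8 CPM in the MEF libraries and at 1.31, 0 and 1.42 CPM in the mESC libraries. The MEF libraries split into a lower pair, MEF-A and MEF-B, and a higher pair, MEF-C and MEF-D, and mESC-B had no count for Meox2. In that library 3 counts, the floor used here, correspond to 0.342 CPM. The log2 fold change of Meox2 was −3.73 (SE 0.724, 95% interval −5.34 to −2.13, adjusted p = 0.00154, edgeR quasi-likelihood test).

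Meox1 and Meox2 were uneven in opposite ways among the mESC libraries. mESC-B held the most Meox1 counts, 21, and none of Meox2, whereas mESC-A held 4 of Meox1 and 12 of Meox2, and mESC-C held 14 and 12. With so few counts no test was made of this pattern.

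Foxc1 and Foxc2 are closely related forkhead factors that act together in somite, kidney and vessel formation. Foxc1 (chr13:31806633-31812476, plus strand, 1 exon) was at 21.8, 19.1, 16.5 and 18.2 CPM in MEF-A to MEF-D and at 0.653, 1.83 and 2.96 CPM in mESC-A to mESC-C. The MEF libraries were even, while the mESC libraries spread widely at lower levels. The log2 fold change of Foxc1 was −3.38 (SE 0.434, 95% interval −4.34 to −2.42, adjusted p = 9.52e-05, edgeR quasi-likelihood test), and mESCs kept 9.6% of the MEF mean. Foxc2 (chr8:121116171-121118895, plus strand, 1 exon) was at 8.77, 9.04, 4.70 and 4.47 CPM in the MEF libraries and at 0.218, 0.342 and 0.593 CPM in the mESC libraries, which held 2, 3 and 5 counts. MEF-A and MEF-B were the higher MEF libraries and MEF-C and MEF-D the lower, and even the lower pair was above all mESC libraries. For Foxc2 the fitted difference was a log2 fold change of −4.09 (SE 0.565, 95% interval −5.34 to −2.84, adjusted p = 1.59e-04, edgeR quasi-likelihood test). The ratio of pooled MEF to pooled mESC CPM was 18.2, with an exact interval of 9.7 to 38.5 that covers counting error only.

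Foxf1, a forkhead factor of lung, gut and vessel mesenchyme that responds to Hedgehog signals, was the least even member. Foxf1 (chr8:121084386-121088144, plus strand) was at 6.07, 7.66, 3.49 and 0.320 CPM in MEF-A to MEF-D, from 63, 50, 29 and 2 counts. The mESC libraries held 0, 3 and 1 counts of Foxf1, which is 0, 0.342 and 0.119 CPM. MEF-D lay below mESC-B, so the groups overlapped through this library. The log2 fold change of Foxf1 was −4.72 (SE 1.12, 95% interval −7.19 to −2.25, adjusted p = 0.00512, edgeR quasi-likelihood test), and without MEF-D it was −5.11 (adjusted p = 0.000592). Without MEF-A, MEF-B or MEF-C the gene failed the filter. Foxc1 and Foxc2 share only 4 exonic stretches of 50 bases, and no member shares more than 2.07% of such stretches with another gene. That highest share is of Foxf1: of its exon bases 98 (4.1%) are shared with Gm27530, an miRNA gene on the opposite strand, and the strand setting of the counting is not given in the sources used here.

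Foxf1 and Foxc2 lie 28026 bases apart on chromosome 8, and Foxc1 lies in a second forkhead cluster on chromosome 13. The neighbours described here were chosen after their values were seen. Mthfsd, between Foxf1 and Foxc2, was at 16.3 CPM in MEFs and 9.73 CPM in mESCs and was not called (log2 fold change −0.75, adjusted p = 0.148, edgeR quasi-likelihood test). Fendrr, a noncoding RNA gene 1275 bases from Foxf1, held 0 to 3 counts in every MEF library, and Foxl1, 9044 bases from Foxc2, held 0 to 8. On chromosome 13, Foxf2 held 2 to 20 counts in MEF libraries, and Foxq1, 245656 bases from Foxc1, was higher in mESCs (0.949 CPM in MEFs and 14.9 CPM in mESCs, log2 fold change 3.97, adjusted p = 3.69e-04, edgeR quasi-likelihood test).

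Osr1, a zinc finger factor needed for kidney and heart formation and expressed in embryonic connective tissue, lies at chr12:9570116-9581500 on the plus strand. Osr1 was at 30.7, 27.1, 50.4 and 48.6 CPM in MEF-A to MEF-D and at 0.327, 0 and 0.711 CPM in mESC-A to mESC-C. MEF-C and MEF-D were again the higher MEF libraries, and no mESC library held more than 6 counts. For Osr1 the fitted difference was a log2 fold change of −6.78 (SE 0.573, 95% interval −8.05 to −5.51, adjusted p = 4.74e-06, edgeR quasi-likelihood test), with a pooled ratio of 113 (59.6 to 249, counting error only).

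Tbx15, a T-box factor of dermal, limb and skeletal mesenchyme at chr3:99240381-99354259 on the plus strand, had a difference of similar size. It was at 63.0, 41.2, 72.8 and 62.8 CPM in MEF-A to MEF-D and at 1.2, 0.228 and 0.356 CPM in mESC-A to mESC-C. MEF-B was the lowest MEF library and mESC-A the highest mESC library, and the groups were far apart. The log2 fold change of Tbx15 was −6.60 (SE 0.448, 95% interval −7.59 to −5.61, adjusted p = 9.74e-07, edgeR quasi-likelihood test), with a pooled ratio of 101 (61.8 to 176, counting error only). The intervals of Prrx1, Osr1 and Tbx15 overlapped, so their differences were not ordered.

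Tcf21, a factor of epicardium, kidney and lung mesenchyme at chr10:22817281-22820174 on the minus strand, was close to the limit of detection and did not pass the filter. It had 18, 4, 5 and 9 counts in MEF-A to MEF-D (1.73, 0.613, 0.602 and 1.44 CPM) and 1, 1 and 7 counts in mESC-A to mESC-C (0.109, 0.114 and 0.830 CPM). The mESC-C library lay above MEF-B and MEF-C, so the groups overlapped. In a fit without the filter on 37943 genes the log2 fold change of Tcf21 was −1.66 (SE 1.03, adjusted p = 0.278, edgeR quasi-likelihood test). With 1 mESC library left out it passed the filter, and it was called without mESC-C (−3.15, adjusted p = 0.0355) but not without mESC-A (−1.21, adjusted p = 0.367) or mESC-B (−1.23, adjusted p = 0.358).

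Ordered by MEF level per kilobase of exon, the members ran from Prrx1 (65.7 ± 8.05 CPM per kb, SD, n = 4) and Prrx2 (42.5 ± 6.09) through Meox1 (26.8 ± 4.34), Osr1 (19.0 ± 5.81) and Tbx15 (16.0 ± 3.56) to Meox2, Foxc1, Foxc2, Foxf1 and Tcf21 (5.22 to 0.467). Prrx1 was apart from Prrx2, Prrx2 from Meox1 and Tbx15 from Meox2 in all MEF libraries. The MEF ranges of Meox1 and Osr1, of Osr1 and Tbx15, and of each neighbouring pair from Meox2 to Tcf21 overlapped. The libraries were read from the 3′ ends of transcripts, where counts scale with transcript number rather than length. The order without division by length therefore suits them better. Without that division Prrx1 averaged 727 CPM and Prrx2 83.3 CPM, Tbx15 moved ahead of Meox1 and Osr1, and Foxc1 ahead of Meox2. On that scale Prrx1 was again apart from Prrx2, but Prrx2 (70.3 to 94.6 CPM) overlapped Tbx15 (41.2 to 72.8 CPM), Tbx15 overlapped Meox1, and Meox1 (53.5 to 74.1 CPM) was apart from Osr1 (27.1 to 50.4 CPM).

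The spread between MEF libraries differed among the members. The coefficient of variation (CV) of CPM was 11.7% for Foxc1, 12.3% for Prrx1, 14.3% for Prrx2 and 16.2% for Meox1, all below the median of 19.8% over the 10402 tested genes with a mean of at least 50 MEF counts. Tbx15 (22.3%), Osr1 (30.7%), Foxc2 (37.0%) and Meox2 (38.0%) were above it. Foxf1 reached 73.2%, but its mean was under 50 MEF counts, so it was outside the set of genes behind that median. Without MEF-B the CV of Tbx15 was 8.66%, below that median, and without MEF-D the CV of Foxf1 was 36.6%. Counting error alone would give 1.32% for Prrx1, 5.73% for Osr1, 10.2% for Meox2, 13.6% for Foxc2 and 16.7% for Foxf1. For Tcf21 (52.7%) counting error would give 33.3%. The biological CV that edgeR fitted as a trend at the level of each gene was 22.8% for Prrx1, 24.5% for Osr1, 31.1% for Meox2 and 35.5% for Foxc2, beyond counting error. The highest MEF library was 1.31 times the lowest for Prrx1 and 2.38 times for Meox2. For Foxf1 it was 2.19 times over MEF-A to MEF-C, and MEF-D held too few counts for a ratio.

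**Figure D3:**
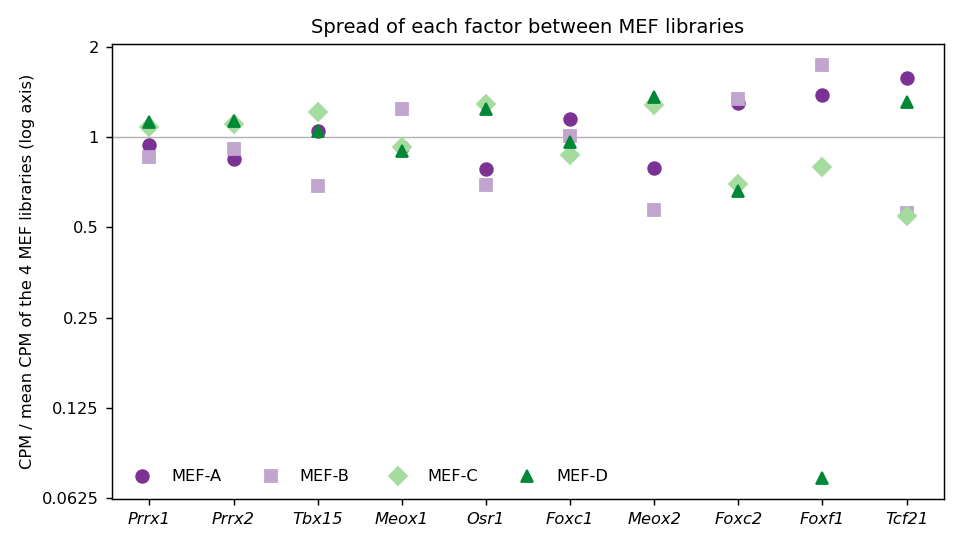
CPM of each patterning factor in each MEF library divided by its mean over the 4 MEF libraries, on a log axis. Foxf1 in MEF-D stands far below the rest, and for Meox2 and Osr1 MEF-C and MEF-D lie above MEF-A and MEF-B, while Foxc2 shows the reverse.

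The MEF libraries fell into pairs that differed in direction between the members. MEF-C and MEF-D were both above MEF-A and MEF-B for Prrx1, Prrx2, Meox2 and Osr1, and MEF-A and MEF-B were both above for Meox1, Foxc1, Foxc2 and Foxf1. For Meox1 the order rested on a near tie, with MEF-A and MEF-C both at 55.5 CPM. Foxc1 was little apart, at 19.1 CPM in MEF-B and 18.2 CPM in MEF-D. Tbx15 and Tcf21 were mixed. A split of this kind, in either direction, was found in 44.2% of all tested genes, beside 8 of 10 members. Scaled by library size without TMM factors, Meox1 and Foxc1 became mixed and Tbx15 joined the genes with MEF-C and MEF-D on top, which gave 7 of 10 beside 43.9% of all tested genes. The summed level of the Y-linked genes Ddx3y, Eif2s3y and Kdm5d moved with the same pairs, at 2.12 and 0.613 CPM in MEF-A and MEF-B and at 91.0 and 88.8 CPM in MEF-C and MEF-D, and its part in these differences was not tested. Among the mESC libraries it was 36.0 CPM in mESC-C and 1.74 and 1.83 CPM in the others. Most of the mESC-C sum was Eif2s3y (27.9 CPM), whereas in MEF-C and MEF-D Ddx3y was the highest of these genes (52.6 and 48.6 CPM). For Prrx1, Meox2, Foxc1, Foxc2, Osr1 and Tcf21, mESC-C was also the highest mESC library, but not for Prrx2, Meox1, Foxf1 or Tbx15.

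Within the Prrx pair, Prrx1 held 90.7, 89.2, 89.5 and 89.7% of the counts in MEF-A to MEF-D, a mean of 89.7% ± 0.652 (SD, n = 4). The share was almost the same in every library. Meox1 held 85.1, 91.3, 78.0 and 76.1% of the Meox pair, and its exact 95% binomial intervals in MEF-A (82.2 to 87.7%) and MEF-B (88.6 to 93.6%) did not reach those in MEF-C (74.4 to 81.3%) and MEF-D (71.9 to 80.0%). Foxc1 held 71.3, 67.9, 77.8 and 80.3% of the Foxc pair, with intervals that all overlapped. Divided by exon length, the mean share of Prrx1 was 60.8% and that of Foxc1 57.7%. In mESCs the share of Prrx1 was 64.7% ± 5.84 (SD, n = 3), and each of the mESC libraries, at 58.0 to 69.0%, was below all MEF libraries. The share of Meox1 ran from 25.0 to 100% in mESCs, and that of Foxc1 was 80.8% ± 5.08 (SD, n = 3), beside 74.3% ± 5.71 (SD, n = 4) in MEFs, with library ranges that overlapped.

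**Figure D4:**
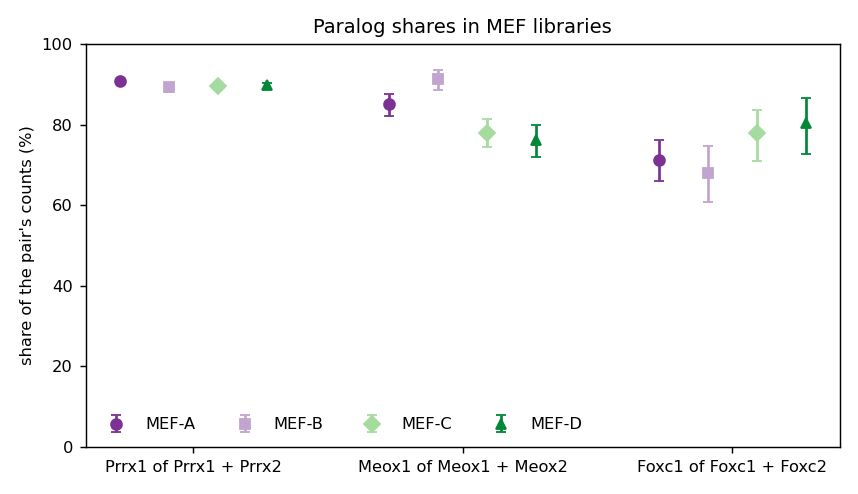
Share of the first gene of each paralog pair in the pair's counts, in percent, for each MEF library, with exact 95% binomial intervals that cover counting error only. The share of Prrx1 stays between 89.2 and 90.7%, while that of Meox1 runs from 76.1% in MEF-D to 91.3% in MEF-B.

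For each tested member, the gene outside the group whose log2CPM profile over the 7 libraries was nearest, by the root mean square (RMS) difference after centring, was found among all tested genes. Prrx1 was nearest to Pappa, which encodes a protease of IGF binding proteins (RMS 0.156 log2 units), and Prrx2 to Crabp1, a retinoic acid binding protein (0.11). Meox1 was nearest to the interleukin receptor gene Il1r1 (0.24), Meox2 to the lipoprotein receptor gene Vldlr (0.296) and Foxc1 to the noncoding gene AI506816 (0.136). Foxc2 was nearest to the miRNA gene row Mir7688 (0.17), Foxf1 to Sytl2 (0.382), Osr1 to the collagen gene Col5a1 (0.27) and Tbx15 to the osteoblast-linked gene Tmem119 (0.259). Such a gene shares the difference between the cell types by construction, with Pappa at 70.6 to 84.0 CPM in MEFs and 0.457 to 0.711 CPM in mESCs.

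The members were set beside other genes of mesoderm development. Of 17 family relatives 11 were tested, 7 were lower in mESCs, 2 were higher and 2 were not called, beside 25.0% of all tested genes lower and 22.8% higher. Their median log2 fold change was −3.24, beside −4.72 over the 9 tested members and 0.04 over all tested genes. The lowest were the homeobox gene Alx4 (log2 fold change −6.83) and the forkhead gene Foxs1 (−6.24), each with 2 counts in all mESC libraries together, so that their pooled ratios were 128 (35.2 to 1060) and 88.9 (24.3 to 738). The 2 that were higher were Foxq1 and Msc, a relative of Tcf21 in muscle precursors, with 2.80 for Msc (adjusted p = 0.00128, edgeR quasi-likelihood test). The family relatives therefore moved in both directions.

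Of 19 limb and craniofacial factors 17 were tested, 9 were lower, 1 was higher and 7 were not called, beside 25.0% of all tested genes lower and 22.8% higher, and the median log2 fold change was −1.95. En1, which patterns the ventral limb (−4.96), and Lhx9 (−4.73) were the lowest. Tbx3, a limb factor that is also part of the mESC network, was higher in mESCs at 232 CPM beside 65.5 CPM in MEFs (log2 fold change 1.83, adjusted p = 6.54e-05, edgeR quasi-likelihood test).

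Of 17 somite and muscle factors 7 were tested, 3 were lower, 2 were higher and 2 were not called, which is too few to set against the 25.0% and 22.8% of all tested genes. Scx, the tendon factor (−5.57, with 3 counts in all mESC libraries and a pooled ratio of 53.4, 18.0 to 261), and the sclerotome factor Pax1 (−3.26) were lower. Tcf15 (6.11) and Six4 (1.33) were higher in mESCs. Of 11 lateral plate and intermediate mesoderm factors 5 were tested, and Hic1, a factor of connective tissue progenitors (−5.19), and Wt1, of mesothelium and kidney (−1.36), were lower, while none was higher.

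In the Hedgehog pathway, whose signals act on Foxf1 and other mesenchymal factors, 12 of 14 genes were tested, 6 were lower in mESCs, 2 were higher and 4 were not called, beside 25.0% of all tested genes lower and 22.8% higher. The co-receptor genes Gas1 (log2 fold change −5.30, 317 CPM in MEFs) and Boc (−4.57) were lower in mESCs. The receptor gene Ptch1, which is itself induced by the pathway, was higher in mESCs at 27.6 CPM beside 7.8 CPM in MEFs (1.81, adjusted p = 0.000836, edgeR quasi-likelihood test). The transducer Smo (−2.69) and Gli3 (−2.37), an effector that acts mainly as a repressor, both named after their values were seen, were lower, whereas Gli1 (1.22, adjusted p = 0.0993, edgeR quasi-likelihood test) and Gli2 (−0.12) were not called.

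Of 8 genes described as regulated by members of the group, 6 were tested, 5 were lower in mESCs and none was higher, beside 25.0% of all tested genes lower and 22.8% higher. The matrix gene Tnc, described as a target of Prrx1, was at 365 CPM in MEFs and 2.89 CPM in mESCs (−6.97), and the chemokine gene Cxcl12 at 332 and 5.79 CPM (−5.84). The smallest falls were those of Cdkn1a (−1.44) and Hey2 (−1.90). These lists were chosen with earlier results of the same data known, so nothing particular to them is read from their counts.

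**Figure D5:**
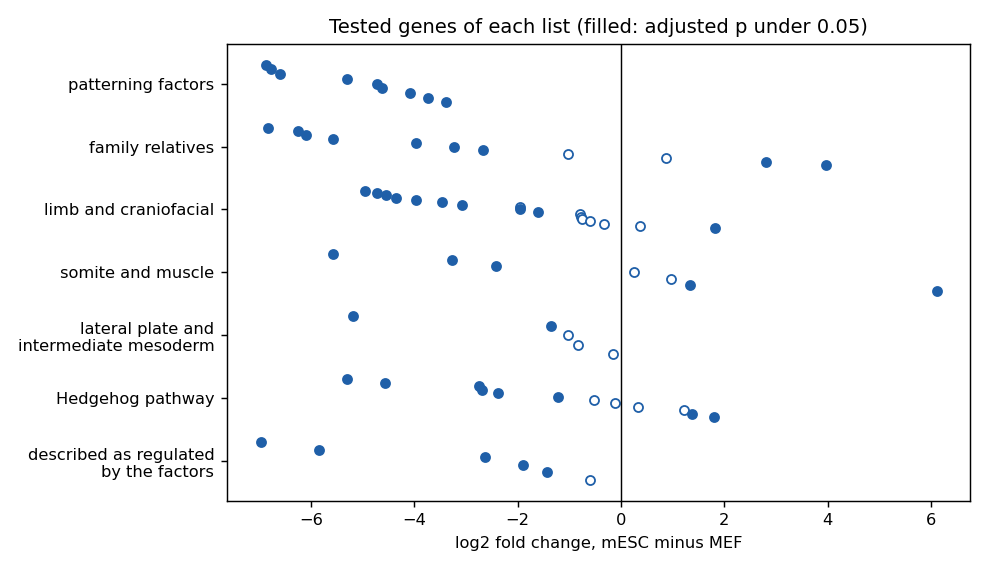
Log2 fold change, mESC minus MEF, of every tested gene in the factors and 6 lists of mesoderm, Hedgehog and regulated genes (1 point per gene, filled where the adjusted p was under 0.05). The 9 patterning factors lie from −6.87 to −3.38, whereas 4 of the 6 lists drawn reach above 0, the exceptions being the lateral plate genes and the genes described as regulated by the factors.

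Markers of other cell types that could be present in a MEF culture were low beside the fibroblast genes. The study sorted Thy1-positive MEFs and Ssea1- and Epcam-positive mESCs for its chromatin libraries, and whether the cells of these RNA libraries were sorted is not given in the sources used here. The summed marker levels in the MEF libraries were 21.7 to 28.6 CPM for skeletal muscle, 16.9 to 26.2 CPM for endothelium, 15.3 to 30.8 CPM for macrophages and blood, 8.63 to 24.5 CPM for mesothelium and 7.71 to 13.5 CPM for cartilage. In the mESC libraries, which should lack these cells, the same sums were 11.5 to 19.1, 31.8 to 55.5, 19.4 to 29.6, 13.5 to 21.8 and 3.16 to 6.05 CPM. These sums are not a plain background level, since Pecam1, Lrrn4, Cd68 and Acan were called higher in mESCs. Pecam1 was at 22.1 to 38.5 CPM in mESCs and 2.22 to 3.36 CPM in MEFs. Lrrn4 was at 10.5 to 14.9 CPM and 0.843 to 3.83 CPM. No marker of these 5 lists was at 0 in every MEF library. Some skeletal muscle markers were less even than their sum. Des was at 11.5 to 14.7 CPM in the MEF libraries, and Acta1 at 9.83, 14.1, 2.89 and 4.63 CPM in MEF-A to MEF-D. Myog held 2, 0, 21 and 29 counts in MEF-A to MEF-D, and Mymk 0, 0, 30 and 1. Neural and glial markers summed to 57.3 to 85.6 CPM in MEFs and 598 to 674 CPM in mESCs, and skin markers to 83.9 to 110 CPM and 80.0 to 97.9 CPM. MEF-D, the lowest MEF library for Foxf1, was also the lowest for the sums of mesothelium (8.63 CPM, and 11.1 to 24.5 CPM in the others) and endothelium (16.9 CPM, and 24.7 to 26.2 CPM in the others). The mesothelium sum was carried by Krt19, at 14.8, 17.5, 9.27 and 7.51 CPM in MEF-A to MEF-D. Upk3b was also lowest in MEF-D (0.16 CPM, 1 count) but highest in MEF-C. Lrrn4 was lowest in MEF-C (0.843 CPM), and Msln was at 0 in both MEF-C and MEF-D. The low endothelium sum of MEF-D came mainly from Emcn, at 16.8, 11.5, 12.8 and 4.15 CPM in MEF-A to MEF-D. Kdr was equally low in MEF-C (0.963 CPM) and MEF-D (0.959 CPM), beside 2.99 and 3.68 CPM in MEF-A and MEF-B. Pecam1 (3.36 CPM) and Cdh5 (3.20 CPM) were instead highest in MEF-D, and Tek was neither. The part of these cells in the level of Foxf1 was not tested.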

How the data were processed

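Gene counts of 4 MEF and 3 mESC libraries were analysed. Per the labels and the study's methods, libraries were 3′-biased with molecular identifiers (UMIs). After demultiplexing and trimming, the authors used STAR for alignment (mm10), Je for UMI collapsing and featureCounts for exonic reads with a unique position, and deposited raw counts per gene. The submitters' processing notes name STAR 2.4.2a, which is not the release in the study's methods. The annotation release and strand setting are not given in the sources used here. No column was left unused (0), and 26 rows with date-like symbols, 0.249% of counts, stayed in the totals.

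Counts were fitted with edgeR 4.0.16 (limma 3.58.1, R 4.3.3; TMM, filterByExpr, quasi-likelihood test, no covariate) over 16580 genes, with Benjamini-Hochberg adjusted p under 0.05 as the threshold. CPM used TMM-scaled library sizes, and log2CPM a prior count of 2. Intervals of shares and ratios are exact binomial at 95%, and 3 counts were taken as the floor, which is 0.289 to 0.479 CPM. The code was tested on simulated counts of 16580 genes, 200 of them shifted by 2 log2 units: edgeR found 200 and made 4 false calls, and DESeq2 1.42.0 found 200 and made 10.

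The members and lists were chosen with earlier results of these data known. Named were all members, the called genes with the 2 largest and 2 smallest log2 fold changes per list, and the gene nearest to each tested member, and other names are marked as chosen later. Some genes that this rule names are not reported here. Positions came from GENCODE M21 (GRCm38) and promoter windows from RefSeq.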

Additional observations from a re-analysis of the deposited data

Results flagged for a closer look

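Among 77 genes examined in the 4 MEF libraries, 3 had a single library whose gap to the nearest of the others, as a part of the whole range, was above Dixon's 95% critical value, and chance alone would give about 3.85 such genes (1 in 20). Meox1 in MEF-B was at 74.1 CPM, above 53.5 to 55.5 CPM in the other MEF libraries. Dlx2, a homeobox gene of facial mesenchyme, was at 5.36 CPM in MEF-B, above the other MEF libraries. Dlx5, its relative in limb and jaw, was at 20.8 CPM in MEF-D, below the others.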

How the results depend on the processing

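No paired analysis was possible because the count columns do not carry the numbers of the samples. The log2 fold changes of the 9 tested members stayed negative and past the threshold in all 113 alternative values (DESeq2, other scalings, filters, a test against a fold change of 2 and leaving out each library), wherever the gene was tested. With the test against a fold change of 2, 3991 genes passed, 2277 lower and 1714 higher in mESCs, in place of 7938, 4153 and 3785. With single libraries left out, 7032 to 7522 passed, 3792 to 3916 lower and 3234 to 3619 higher. Without TMM, all tested genes shifted by 0.28 (median, log2) and 61.0% of calls were higher in mESCs, in place of 47.7%. Among 801 alternative values of other genes, 770 kept their sign and their call, 14 lost the call and 12 gained it. The remaining 5 changed sign, all of genes that were not called. Without TMM, Pax8 became 0.14 and Gli2 0.17. With single libraries left out, Gli2 ran from −0.29 to 0.08, Hhip from −1.14 to 0.15 and Myf5 from −0.24 to 0.68.

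With 1 MEF library left out, the CV ran from 2.09 to 18.6% for Meox1 (lowest without MEF-B), 7.49 to 14.3% for Foxc1 (without MEF-A), 36.6 to 96.3% for Foxf1 (without MEF-D) and 8.66 to 27.4% for Tbx15 (without MEF-B), and the highest over the lowest library from 2.19 to 24.0 for Foxf1 (the latter on 2 counts in MEF-D) and 1.16 to 1.77 for Tbx15. Divided by exon length, the share of Prrx1 was 60.8% and that of Foxc1 57.7%, in place of 89.7% and 74.3%. Of 156 counts per list 151 stayed within 1.5 times. Depth limited Foxf1, Tcf21 and the mESC values of Osr1, Tbx15, Foxc2 and Meox2, which rest on few counts per library.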
